A study of Mus musculus with 7 samples.

Results

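The regions described here are the H3K27me3 islands that lay within 5 Mb of the distal end of the mouse autosomes. H3K27me3 is the trimethylation of lysine 27 of histone H3. Polycomb repressive complex 2 deposits it over genes that are kept silent, often as broad domains around developmental regulators, and in an adult tissue such as liver these domains mark genes of other lineages. Mouse autosomes carry the centromere at one tip, next to the start of the coordinates, so the distal end is the tip that carries the telomere of the only long arm. Each list of islands came from the liver of 1 male CD-1 mouse, an outbred stock, at 7 weeks of age. 3 mice were given vehicle, 1% DMSO in corn oil, and 4 were given TCPOBOP at 3 mg/kg, with livers taken 27 h after the injection in both groups. TCPOBOP activates the constitutive androstane receptor, which switches on genes of drug metabolism in hepatocytes, and the design asked what it does to the mark. Whole liver was used. The lists hold no gene names and no annotation of their build was used, so the tissue label was not checked against marker genes.

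Islands of the 7 lists that overlapped or touched were merged, and the end of a chromosome was set at the largest island end in any list. Of 17394 merged regions, 17341 were autosomal and 726 had their midpoint within 5 Mb of an end. These 726 are the distal regions, 4.19% of the autosomal ones, in zones that made up 3.94% of the autosomal length after position 3 Mb. All coordinates are in mm9. The last island ended between 0.12 and 830 kb before the end of the mm9 chromosome, with a median of 155 kb. The rest of a chromosome ran from position 3 Mb to the start of its distal zone, and its first 10 Mb, from 3 to 13 Mb, served as a second comparison. Cover is the percentage of a stretch that lies under islands. It was averaged over the 19 autosomes with equal weight. The position of a zone did not depend on how much mark it held, apart from the island that set the end. Within 0.25 Mb of the 5-Mb line lay 31 regions on the distal side, with a median width of 33.6 kb, and 37 on the other, with a median of 28.8 kb. One distal region, a 964 kb domain of chromosome 16, started before the line.

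The lists held between 14167 and 20550 islands per liver and gave no read numbers, so the depth behind each list is unknown here. Each list was called on the reads of its own library, so these lists cannot show a uniform gain or loss. The libraries of vehicle replicate 2 and TCPOBOP replicate 2 stood apart from the other 5 at the chromosome ends. At 12 of the 19 ends both lay outside the range of the others, above it at 5 ends and below it at 7. These 2 lists covered the least genome, 537 Mb each against 583 to 605 Mb, and had the highest median score per 400-bp window over all their islands, 3.02 and 3.05 against 2.56 to 2.79. What sets them apart was not tested. The differences between zones and between treatments, and the regions that separate the treatments, are given below with and without them. Differences from the neighbouring 5 Mb in measures other than cover are given for all 7 livers only.

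Distal ends carried more H3K27me3 than the chromosomes as a whole. Islands covered 29.98, 30.2 and 29.2% of the distal zones in vehicle replicates 1 to 3 and 29.7, 29.8, 30.5 and 29.99% in TCPOBOP replicates 1 to 4. In the rest of the same chromosomes the 3 vehicle livers had 24.3, 22.1 and 24.2% and the 4 TCPOBOP livers 24.5, 22.1, 25.1 and 24.3%. Every liver had more cover at the ends, and the lowest distal value was above the highest value elsewhere. The difference was 6.13 ± 1.23 percentage points (SD, n = 7; two-sided exact permutation test by sign flips, p = 0.0156, adjusted 0.0156 over 10 comparisons, the smallest p that 7 livers allow). Without the libraries numbered 2 it was 5.42 points, and 5 livers cannot give a p under 0.0625. The values of all 7 livers are averages over the same autosomes, so this test speaks only for how repeatable the difference was between livers. Chromosomes are described below by counts.

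Against the first 10 Mb the contrast was larger. That zone, which follows the centromeric tip, had a cover of 17.5, 14.8 and 17.3% in the vehicle livers and 18.01, 14.9, 18.6 and 17.4% after TCPOBOP. The distal zones exceeded it by 12.98 ± 1.53 points (SD, n = 7; exact permutation p = 0.0156, adjusted 0.0156), a ratio of 1.64 to 2.04 in single livers. Without the libraries numbered 2 the difference was 12.1 points.

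The higher cover was not limited to the last 5 Mb. The next 5 Mb inward had a cover of 34.6 ± 1.06% (SD, n = 7), so that distal minus neighbour was -4.66 points, and it was higher in 7 of 7 livers (exact permutation p = 0.0156; distal minus neighbour -4.34 points in the 5 livers without number 2). The stretches from 10 to 15 Mb and from 15 to 20 Mb from the end had 31.7 ± 0.686% and 31.2 ± 0.727% and were also above the distal zones in all 7 livers. Without the libraries numbered 2, distal minus these stretches was -2.09 and -1.48 points. Between 13 Mb and the last 20 Mb the cover was 23.1 ± 1.36%. The distal zones lay 6.84 points above the middle of the chromosomes (6.03 without the libraries numbered 2) and, as means over chromosomes, below each of these 3 stretches. By chromosome the picture was mixed, since the distal zone had more cover than the stretch from 5 to 10 Mb on 8 of 19 chromosomes, than that from 10 to 15 Mb on 10 and than that from 15 to 20 Mb on 7. These neighbouring stretches were chosen as comparisons after the profile along the chromosome had been seen.

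**Figure D1:**
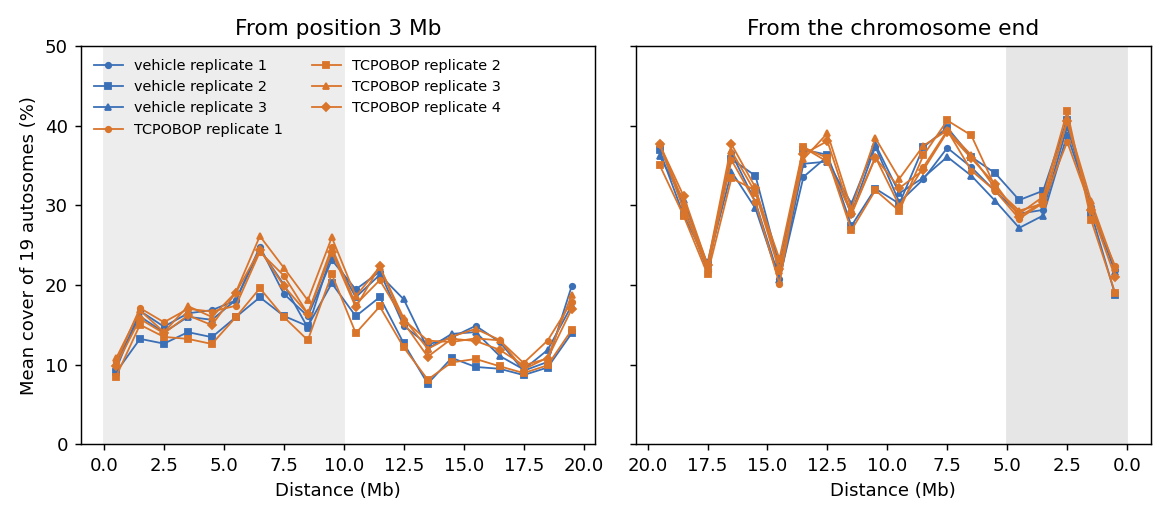
Cover in 1-Mb steps, mean of 19 autosomes, against distance in Mb from position 3 Mb (left, the first 10 Mb shaded) and from the chromosome end (right, the last 5 Mb shaded), 1 line per liver, blue for vehicle and orange for TCPOBOP. Cover is 20.97% in the last Mb, 40.05% between 2 and 3 Mb from the end and stays between 21.5 and 38.8% further inward, while no step of the first 20 Mb after position 3 Mb exceeds 23.4%.

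Within the distal zones mean cover was lowest at the very tip. The last Mb had a cover of 20.97 ± 1.49% (SD, n = 7), the step from 1 to 2 Mb had 29.5 ± 0.745% and the step from 2 to 3 Mb had 40.05 ± 1.29%. The 2 steps further inward had 30.3 ± 1.02% and 28.8 ± 1.06%. The step from 2 to 3 Mb exceeded the last Mb by 19.1 ± 2.57 points in 7 of 7 livers (exact permutation p = 0.0156, a comparison chosen after the profile had been seen; 17.8 points in the 5 livers without number 2) and on 15 of 19 chromosomes. The last Mb was the lowest of the 5 steps on 5 chromosomes and the highest on 1. It ranged from 1.79% of chromosome 5 to 61.8% of chromosome 15, and 4 chromosomes had less than 5% of it under islands.

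The most distal region of each chromosome set its end and was by that rule the one that any single liver carried furthest out, which favours regions found in few livers. Its width had a median of 18.4 kb, against 33.2 kb over all distal regions, and ranged from 1.6 kb on chromosome 4 to 121.6 kb on chromosome 11. Of the 19, 3 had an island in all 7 livers, 10 in 2 to 6 livers and 6 in 1 liver. Over all distal regions 42.1% were in all 7 livers and 16.4% in 1. The 3 shared ones were chr2:181480801-181571200, chr11:121578001-121699600 and chr14:125065601-125080400. On chromosomes 4, 5, 7 and 12 the last region reached within 1 kb of the mm9 end and had an island in 3, 2, 1 and 3 livers.

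The chromosome ends differed widely from one another. Mean cover ranged from 3.97% at the end of chromosome 17 to 53.9% at that of chromosome 4, with a median of 35.1%. The SD over the 19 ends was 14.9 points, against 4.23 points for the rest of the chromosomes, whose cover ran from 17.7 to 33.6%. Short windows vary more than long ones, and the SD of the next 5-Mb windows inward was similar, at 15.3, 13.7 and 17.4 points. At a single end the SD over the 7 livers was between 0.986 and 5.40 points. The cover of an end had a Pearson r of 0.252 with that of the rest of its chromosome (19 chromosomes, whose values share the same 7 libraries).

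At 12 of 19 ends the mean cover was above that of the rest of the chromosome, in all 7 livers at 11 of them and in 4 of 7 at the end of chromosome 11. At 7 ends it was below, in all 7 livers at 6 of them, on chromosomes 3, 10, 13, 14, 17 and 18. Without the libraries numbered 2 there were 11 ends above. Against the first 10 Mb 16 ends had more cover, 15 of them in all 7 livers, and the end of chromosome 17 had less in all 7. Cover was under 20% at 7 ends and 30% or more at 11, with chromosome 12 alone between, at 24.7%.

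**Figure D2:**
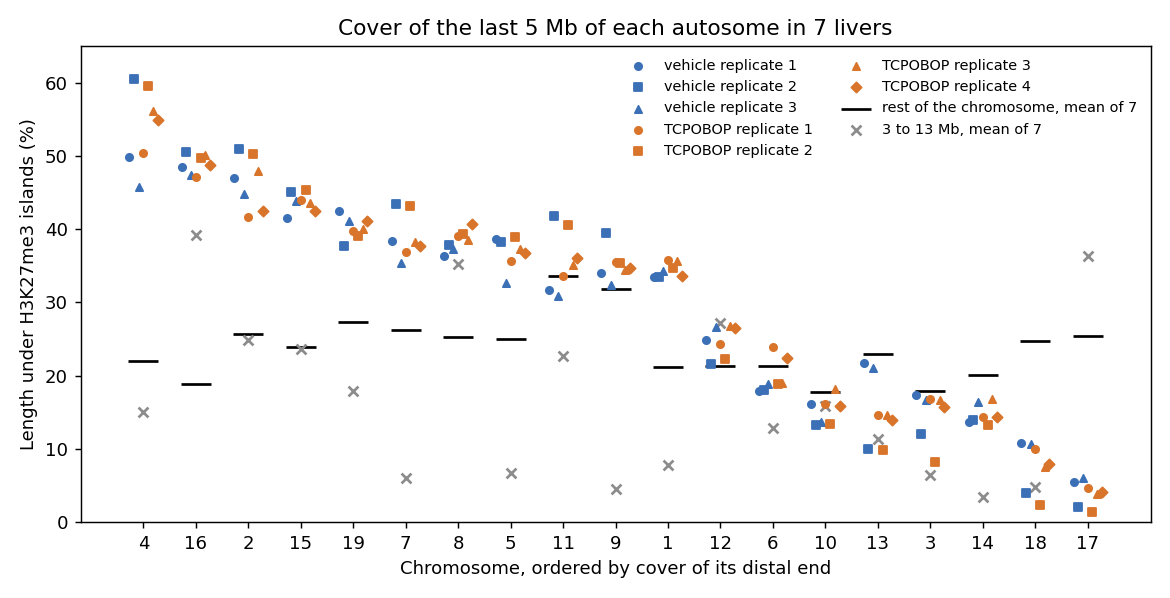
Percentage of the last 5 Mb under islands for each autosome in each liver (blue vehicle, orange TCPOBOP, 1 marker shape per replicate number), with the mean of the rest of the chromosome as a bar and of 3 to 13 Mb as a grey cross. Ends fall from 53.9% on chromosome 4 to 3.97% on chromosome 17, and the squares of the libraries numbered 2 are often the outermost points.

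Chromosome 4 had the highest cover at its end. Its cover was 49.9, 60.5 and 45.8% in vehicle replicates 1 to 3 and 50.4, 59.5, 56.2 and 54.9% in TCPOBOP replicates 1 to 4, against 22.0 ± 0.805% in the rest of that chromosome (SD, n = 7). The step from 2 to 3 Mb from its end was 81.2% covered. The end of chromosome 16 followed with 48.5, 50.5 and 47.4% in vehicle and 47.2, 49.7, 50.1 and 48.8% in TCPOBOP livers, against 18.9 ± 1.69% in the rest, one of the lowest of all autosomes. The end of chromosome 2 had 47.0, 51.0 and 44.8% in vehicle and 41.7, 50.3, 47.9 and 42.5% in TCPOBOP livers, against 25.6 ± 0.975% in the rest. In all 3 the lowest liver was above the rest of its chromosome and the treatment groups overlapped.

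Islands were scarce at the end of chromosome 17. Its cover was 5.51, 2.09 and 6.08% in the vehicle livers and 4.73, 1.44, 3.86 and 4.08% in the TCPOBOP livers. The rest of that chromosome had 25.4 ± 0.623% (SD, n = 7) and its first 10 Mb, at 36.3 ± 1.59%, were among the richest of all. Chromosome 18 had at its end 10.8, 3.93 and 10.7% with vehicle and 9.96, 2.42, 7.47 and 7.90% with TCPOBOP, against 24.7 ± 2.19% in the rest. At both ends the 2 libraries numbered 2 were the lowest of the 7. For chromosome 14 the values were 13.7, 13.9 and 16.4% and 14.4, 13.3, 16.8 and 14.4%, against 20.1 ± 1.39% in the rest.

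Long stretches without an island in any list lay at the poor ends. On chromosome 17 such a stretch ran from 91224001 to 93588800, 2365 kb, and on chromosome 18 one ran from 87221601 to 88622400, 1401 kb. Chromosome 3 had one of 1210 kb, from 158232801 to 159442800, and chromosome 10 had 2, of 1143 and 1057 kb. These were all the stretches over 1 Mb, and together the zones had no island in any list over 55.8% of their length. A stretch without islands may also hold sequence to which reads cannot be assigned, which was not tested.

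Tiling each chromosome inward from its end in 5-Mb windows placed the ends among their own chromosome. The distal window ranked 1 of 30 on chromosome 4 and 1 of 18 on chromosome 16, and 2 of 20 on chromosome 15 and 2 of 11 on chromosome 19. It ranked last of 18 on chromosome 17 and 16 of 17 on chromosome 18. On 12 of 19 chromosomes fewer than 50% of the other windows had more cover, and the median was 36.4%. By construction, about 50% of all windows lie in the richer part of their chromosome. Whether 12 of 19 ends is more than that was not tested. The end was the richest window on 2 of 19 chromosomes.

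**Figure D3:**
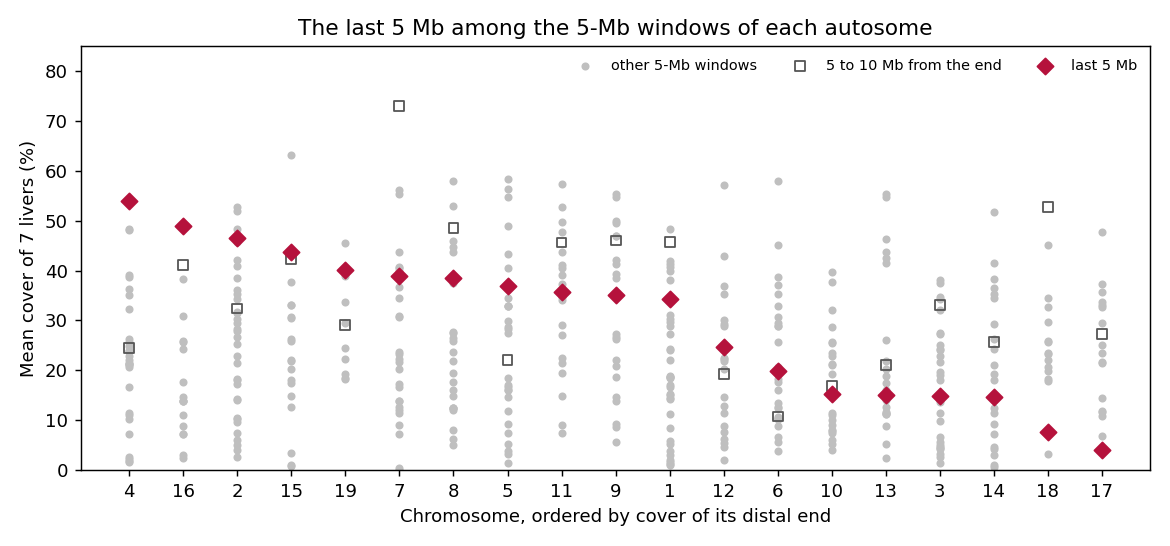
Mean cover of 7 livers in every 5-Mb window of each autosome (grey), with the window from 5 to 10 Mb from the end as an open square and the last 5 Mb as a red diamond. The diamond is the highest point on chromosomes 4 and 16 and the lowest on chromosome 17.

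Distal islands were more frequent, slightly wider and denser than those in the rest of the chromosomes, and against the neighbouring 5 Mb they were denser but less frequent. Their number per Mb was 6.47, 7.91 and 8.45 in vehicle replicates 1 to 3 and 9.34, 8.09, 8.31 and 8.54 in TCPOBOP replicates 1 to 4, which was 0.964 ± 0.267 above the rest (SD, n = 7). Their median width was 33.2, 24.8 and 24.8 kb and 22.4, 24.0, 24.0 and 24.0 kb, which was 1.03 ± 0.605 kb above the rest, a difference of 1 to 5 of the 400-bp windows in which islands are built. The authors' score, divided by the number of windows of an island and compared only within a list, had a distal median that was 1.05 to 1.15 times that of the rest. The ratio was highest in the libraries numbered 2, at 1.15 in both. Each of the 3 differences went the same way in 7 of 7 livers (exact permutation p = 0.0156, adjusted 0.0156 in each case), and against the first 10 Mb they were 2.36 ± 0.398 islands per Mb, 2.34 ± 0.428 kb and ratios of 1.0996 to 1.24, all 7 of 7 livers and the same p.

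Set against the 5 Mb next to them, a comparison added after the data were seen, the distal zones had fewer islands per Mb, 8.16 against 9.81 ± 0.993 (SD, n = 7; lower in 7 of 7 livers, exact permutation p = 0.0156, adjusted 0.0208 over 4 measures). Median width was 25.3 kb against 25.9 ± 3.22 kb and lower at the ends in the mean, with an adjusted exact permutation p of 0.0938. Score per window had a median of 3.04 against 2.88 ± 0.193 and was higher at the ends in 7 of 7 livers (exact permutation p = 0.0156, adjusted 0.0208). The gap was widest in vehicle replicate 2, at 3.43 against 3.14, and TCPOBOP replicate 2, at 3.48 against 3.14. It was smaller in vehicle replicates 1 and 3, at 2.70 against 2.64 and 2.89 against 2.85. In TCPOBOP replicates 1, 3 and 4 the values were 2.78 against 2.72, 3.01 against 2.81 and 3.00 against 2.90. With a distal zone of 10 Mb the differences from the rest were larger for number, 1.90 islands per Mb, and width, 1.54 kb, and smaller for score per window, 0.169 against 0.252.

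**Figure D4:**
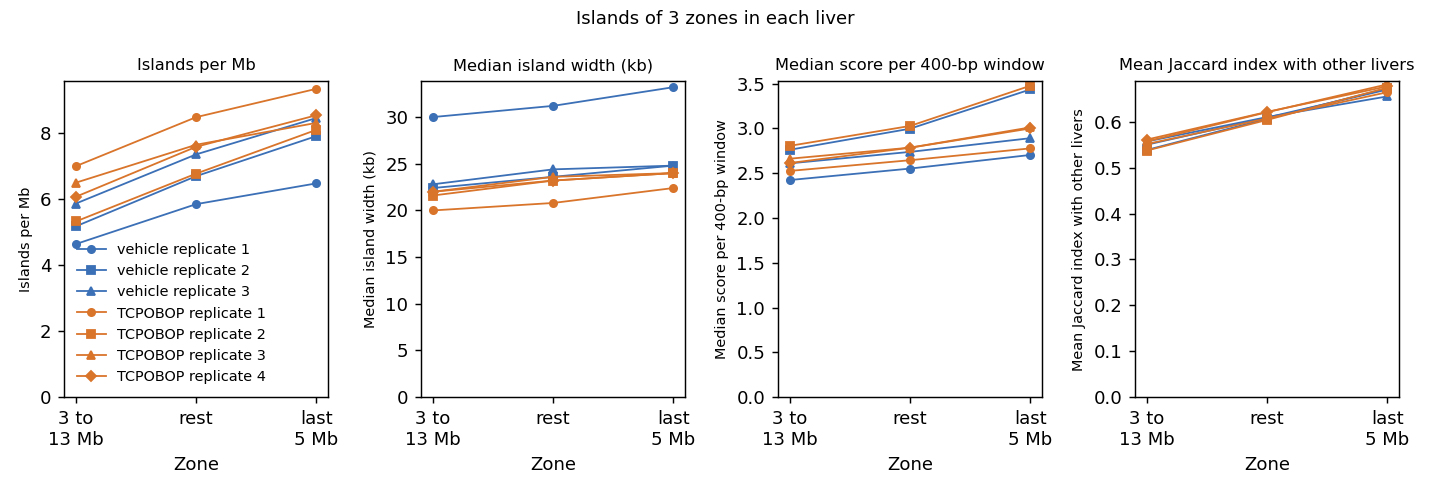
Islands per Mb, median island width in kb, median score per 400-bp window and mean Jaccard index with the other 6 livers, in 3 to 13 Mb, the rest of the chromosome and the last 5 Mb, 1 line per liver (blue vehicle, orange TCPOBOP). Every line in the 4 panels rises from left to right; vehicle replicate 1 has the fewest and widest islands in each zone, and score per window is comparable within a line only.

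Distal islands took a larger share of the top islands of each list than of all its islands. They made up 4.27 to 4.67% of the autosomal islands of a list and 4.77 to 5.32% of their length. Of the top 100 by score they were 9, 10 and 7 in vehicle replicates 1 to 3 and 13, 11, 12 and 10 in TCPOBOP replicates 1 to 4. The score grows with island length, and of the top 100 by width 9, 10 and 6 were distal in the vehicle lists. In the TCPOBOP lists 9, 11, 9 and 7 of the top 100 by width were distal. Of the top 100 by score per window 7, 10 and 11 were distal in the vehicle lists and 10, 15, 11 and 13 in the TCPOBOP lists. Of the top 100 by score of one list a median of 61% overlapped a top-100 island of another (54 to 72% over the pairs), and by score per window a median of 38% (30 to 44%). The counts of the 7 lists are therefore not independent.

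Livers shared distal islands more fully than others. The Jaccard index, the length under islands in both of 2 livers divided by that in either, had a mean with the other 6 livers of 0.655 to 0.681 in the distal zones and 0.604 to 0.621 in the rest. The difference was 0.0595 ± 0.00812 (SD, n = 7; 7 of 7 livers, exact permutation p = 0.0156, adjusted 0.0156). The first 10 Mb had 0.537 to 0.561. The neighbouring 5 Mb, with more cover, had 0.650 ± 0.00922, below the ends in 7 of 7 livers (SD, n = 7; exact permutation p = 0.0156, adjusted 0.0208). The index rises with cover by its construction, and cover was also higher at the ends. Of the length under islands in any liver, 36.3% was under islands in all 7 at the distal ends, 28.7% in the rest and 21.8% in the first 10 Mb. Over the 19 ends this share ran from 3.44% on chromosome 18 to 61.3% on chromosome 15 and had a Pearson r of 0.936 with the cover of the end (19 chromosomes, same libraries).

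All 7 livers had an island in 306 of the 726 distal regions (42.1%), and 119 (16.4%) had one in 1 liver, against 38.0% and 19.7% of the 16615 regions in the rest. In the first 10 Mb 30.5% were in all 7. Among regions under 50 kb wide the distal share in all 7 was 0 of 20 below 10 kb, 6.36% from 10 to 25 kb and 38.1% from 25 to 50 kb, against 0.478, 7.77 and 29.6% in the rest. From 50 to 100 kb it was 74.2% against 72.2%, and at 100 kb and over it was 98.1% against 96.9%. The distal share was therefore higher in the 3 classes over 25 kb and not in the narrower ones. Regions of 100 kb and over made up 14.7% of the distal regions and 11.95% of the rest. Width and sharing rise together in part because a merged region joins the islands of every liver.

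**Figure D5:**
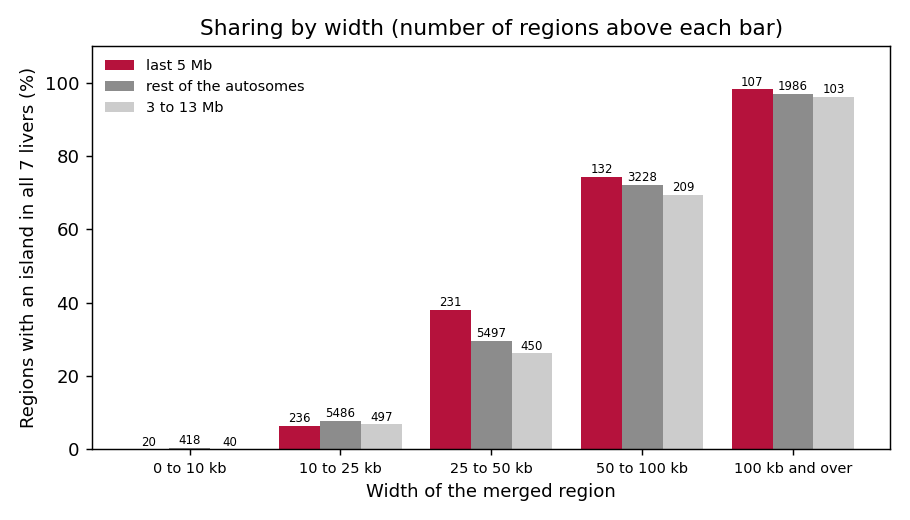
Percentage of merged regions with an island in all 7 livers, by width of the region in kb, for the last 5 Mb (red), the rest of the autosomes (grey) and 3 to 13 Mb (light grey), with the number of regions above each bar. Sharing rises from 0% below 10 kb to 98.1% at 100 kb and over at the distal ends, and the red bars exceed the grey ones most between 25 and 50 kb.

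The regions in all 7 livers were denser at the ends. The score per window, relative to the median of the list, had a median over the 306 shared distal regions of 1.26, against 1.12 over the 6310 elsewhere. It was 2 or more in 47 distal regions (15.4%) and in 8.16% elsewhere, a limit chosen after the values were seen. Chromosome 15 held 13 of the 47, chromosomes 4 and 10 held 6 each and the others 3 or fewer each. Among shared regions under 50 kb the share was 26.2% at the ends and 13.3% elsewhere. Among regions in all 7 livers the SD of cover over livers had a median of 12.6 points at the ends and 14.1 points elsewhere.

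The longest domains lay on chromosomes 16, 4, 15, 9, 7 and 8. The chromosome 16 region from 92614801 to 93579200 had 848, 906 and 831 kb under islands in vehicle replicates 1 to 3 and 846, 880, 848 and 868 kb in TCPOBOP replicates 1 to 4. On chromosome 4 from 153680401 to 154213600 islands spanned 467, 523 and 447 kb in vehicle livers and 441, 527, 487 and 478 kb in TCPOBOP livers. The neighbouring chromosome 4 region from 152535601 to 153113200 had 424, 464 and 424 kb with vehicle and 470, 480, 557 and 511 kb with TCPOBOP. This last domain had 87.3 ± 6.78% (SD, n = 4) of its length covered with TCPOBOP and 75.7 ± 4.04% (SD, n = 3) with vehicle; the groups did not overlap there, as in 1.8% of all regions tested, and the difference did not pass (limma, 11.6 points, SE 8.31, adjusted p = 1). In the former 2 the groups overlapped.

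The other 7 of the 10 longest had 291 to 392 kb under islands in the mean of 7 livers and 86.4 to 96.8% of their length covered. They were chr16:95310401-95730400, chr16:96652401-97011200, chr15:102550801-102923600, chr15:100515601-100887600, chr9:119376001-119769200, chr7:151770401-152099600 and chr8:127564401-127892000. The region chr15:102550801-102923600 was the densest of the 10. Its score per window was 3.11, 4.45 and 3.74 times the median of the list in vehicle replicates 1 to 3 and 3.51, 4.08, 3.40 and 4.03 times in TCPOBOP replicates 1 to 4. In the other 9 domains the median over livers of this ratio was between 0.969 and 1.61.

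The densest shared regions were short. On chromosome 10 from 126960001 to 126980000 the score per window was 5.70, 12.5 and 6.496 times the list median with vehicle and 6.40, 6.499, 5.94 and 6.08 times with TCPOBOP, over 10.4 to 18.8 kb of islands. Vehicle replicate 2 stood alone there. On chromosome 14 from 122858801 to 122901200 the ratio was 3.27, 6.17 and 4.68 with vehicle and 3.84, 5.42, 4.00 and 5.00 with TCPOBOP, and the region was 98.1 ± 1.09% covered (SD, n = 7). This domain of 42.4 kb lay at one of the 3 poorest ends. The other 3 were chr4:154306801-154337600, chr15:99043201-99072800 and chr15:98594001-98646400, with median ratios of 4.66, 4.17 and 4.12.

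After adjustment no measure of the distal ends differed between TCPOBOP and vehicle livers. With 35 splits and 5 comparisons 1 measure alone could not pass. Cover was 29.8 ± 0.503% in vehicle livers (SD, n = 3) and 30.01 ± 0.380% in TCPOBOP livers (SD, n = 4). The difference of 0.197 points had a 95% interval of -0.495 to 1.46 points (exact permutation test over 35 splits, p = 0.543, adjusted 0.679 over 5 comparisons; the smallest possible p is 0.0286). In whole liver a shift in the make-up of cells and a change of the mark within cells cannot be told apart. Islands per Mb were 7.61 ± 1.02 with vehicle and 8.57 ± 0.543 with TCPOBOP (difference 0.958, interval -0.358 to 2.86, exact permutation p = 0.143, adjusted 0.357). The score per window relative to the rest of the list was 1.09 ± 0.0511 and 1.09 ± 0.0418 (interval of the difference -0.0962 to 0.140, exact permutation p = 0.971, adjusted 0.971). The Jaccard index with other livers was 0.666 ± 0.00951 and 0.674 ± 0.00729 (interval of the difference -0.0150 to 0.0263, exact permutation p = 0.257, adjusted 0.429). Without the libraries numbered 2 the differences were 0.469 points of cover, 1.26 islands per Mb, 0.0117 in relative score per window and 0.00637 in Jaccard index, where 2 livers against 3 cannot give an exact permutation p under 0.1.

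The median width of distal islands was 27.6 ± 4.85 kb in vehicle livers (SD, n = 3) and 23.6 ± 0.800 kb in TCPOBOP livers (SD, n = 4). All 3 vehicle livers, at 33.2, 24.8 and 24.8 kb, were above the 4 TCPOBOP livers, at 22.4, 24.0, 24.0 and 24.0 kb. The difference of -4.00 kb (95% interval -10.8 to -0.8 kb) had an exact permutation p of 0.0286 and did not pass after adjustment over 5 comparisons (adjusted p = 0.143). This p is the smallest that the design allows, so a difference in width alone could not have passed. Vehicle replicate 1 set most of it, since without that liver the difference was -1.20 kb. It was -5.53 kb without the libraries numbered 2. With lists cut to equal total length the difference was -3.22 kb (exact permutation p = 0.514). With islands at or above the median score of their list it was -4.45 kb (exact permutation p = 0.286). In the rest of the chromosomes the widths were 31.2, 23.6 and 24.4 kb and 20.8, 23.2, 23.6 and 23.2 kb.

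Pairs of livers given the same treatment had a mean distal Jaccard index of 0.670 over 9 pairs, and pairs given different treatments had 0.671 over 12. The highest, 0.726, was that of vehicle replicate 2 with TCPOBOP replicate 2. The lowest, 0.636, was that of vehicle replicate 3 with TCPOBOP replicate 2.

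No single chromosome end passed the test. The smallest exact permutation p that the design allows is 0.0286. At 1 end alone this p adjusts to 0.543 over 19 ends, so a change at 1 end could not have passed. The test therefore cannot decide whether a single end changed. Mean cover was higher with TCPOBOP at 11 ends and lower at 8. At the end of chromosome 8 it was 36.4, 37.8 and 37.3% with vehicle and 39.0, 39.3, 38.6 and 40.7% with TCPOBOP, a difference of 2.24 points between groups that did not overlap (exact permutation p = 0.0286, adjusted 0.543 over 19 ends). This was 1 of 19 ends, or 5.26%, and 0 ends had an adjusted p under 0.05. The end of chromosome 13 had the largest difference, -4.30 points, with 21.7, 10.0 and 21.01% in vehicle and 14.6, 9.88, 14.6 and 13.9% in TCPOBOP livers. There the groups overlapped through vehicle replicate 2 (exact permutation p = 0.2, adjusted 0.950).

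Of the 726 distal regions, 607 could be tested for a difference in cover with limma, fitted over all 13988 regions of the genome with islands in at least 2 livers. The 119 left out had an island in 1 liver. With limma 0 of 607 had an adjusted p under 0.05, against 0% of all regions (lowest adjusted p of a distal region 0.907), and 30 (4.94%) had an unadjusted p under 0.05, against 3.87% of all. Of these 30, 19 had more and 11 had less cover with TCPOBOP. Limma called 0 of 553 distal regions without the libraries numbered 2. The median difference was -0.184 percentage points over the distal regions and 0.592 over all. When losses were simulated, 0% of the 200 emptied regions were recovered, so this test could not detect changes of single regions. Covers did not overlap between the groups in 11 distal regions with more cover after TCPOBOP, 1.81% of the 607 against 1.8% of all tested, and in 11 with less, 1.81% against 1.65%. Neither share stands out from that of all regions.

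The 5 distal regions with the lowest p lay on chromosomes 11, 19, 19, 18 and 19. On chromosome 11 from 118152401 to 118165200 the islands covered 0, 96.9 and 0% of 12.8 kb in vehicle replicates 1 to 3 and 87.5, 100, 84.4 and 90.6% in TCPOBOP replicates 1 to 4 (limma difference 58.3 points, SE 18.9, adjusted p = 0.907). On chromosome 19 from 58929601 to 58971600 the covers were 72.4, 87.6 and 74.3% and 94.3, 99.0, 85.7 and 98.1% (limma difference 16.2 points, SE 6.12, adjusted p = 1). The groups overlapped through vehicle replicate 2 in both. The others were chr19:59873201-59889600, with less cover after TCPOBOP, and chr18:89116001-89142000 and chr19:56454401-56471200, with more, all with an adjusted p of 1 in limma.

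A complete separation of the treatments was found in 3 distal regions, where each vehicle liver had an island and each TCPOBOP liver lacked one (0.413% of the distal regions, against 0.0862% of all 17394 regions). Regions with islands in each TCPOBOP liver and no vehicle liver numbered 0, against 0.259% of all regions. These counts depended on the setting. Without the libraries numbered 2 there were 17 distal regions with islands in TCPOBOP livers only (2.34%, against 1.88% of all regions) and 6 in vehicle livers only (0.826%, against 0.604%). With islands at or above the median score of their list there were 0 and 0, against 0.26% and 0.0208% of all regions. All 3 lay at the end of chromosome 13. From 115644401 to 115691600 islands spanned 23.6, 42.4 and 31.2 kb of 47.2 kb in the vehicle livers. From 117675201 to 117719200 they spanned 37.2, 23.2 and 27.2 kb of 44.0 kb, and from 116608001 to 116637600 they spanned 24.8, 22.8 and 23.6 kb of 29.6 kb. Their scores per window were low, at 0.471 to 0.850 times the median of the list. The region from 116608001 was the 1 distal region called by limma without trend and robust variance (difference -80.2 points, SE 7.45, adjusted p = 0.0404), a setting that called 0.0929% of all regions. On simulated data that setting recovered 66.5% of 200 emptied regions and called 50 others that had not been changed. With lists of equal total length 1 distal region had islands in vehicle livers only (0.153%, against 0.144% of all regions) and 1 in TCPOBOP livers only (0.153%, against 0.223%).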

How the data were processed

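The submitters' processing notes name the build mm9 and, as tools, SICER (version 1.1), an island caller, and Bowtie2 (version 2.3.2), an aligner. The deposited values were 1 list of islands per liver, not pooled, with the authors' score for each island; this score grows with island length and library depth and was therefore compared only within a list, per 400-bp window. From the names of the lists, windows were 400 bp long, islands were joined over gaps of 2400 bp, and the E-value was 100. Input controls and filters are not given in the sources used here, and the files hold no read numbers.

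Each sample is a separate liver, grouped by its title. Zones were compared within livers by exact sign flips (128, smallest p 0.0156), and groups by exact permutation over 35 splits, with Benjamini-Hochberg adjustment. Covers of merged regions entered a linear model in limma (version 3.58.1 under R 4.3.3) with trended, robust variance and a threshold of 0.05, which was checked on simulated data with 200 of 13988 regions emptied in 1 group. An island belonged to the zone that held its midpoint, and cover was counted by position. The lengths of the mm9 chromosomes, used for the distance to the last island and in 1 alternative, were entered by hand. SciPy 1.17.1 and NumPy 2.4.6 under Python 3.11.15 served for the remaining steps. Alternatives changed the zone, the chromosome end, the lists, the averaging, the variance model and the livers included. Regions were named by rules: the last region of each chromosome, the 10 longest and 5 densest regions in all livers, the regions separated between groups, the 5 with the lowest limma p, and the 3 richest and 3 poorest ends. The regions and rules were chosen with earlier results of these data known. Genes were not placed on islands, because the gene table used here is of GRCm38. 1 gene family of the list searched is not reported here.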

Additional observations from a re-analysis of the deposited data

Results flagged for a closer look

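In 3 of 44 measures a test for outliers flagged 1 TCPOBOP liver. For independent, continuous measures this happens by chance in about 1 of 20, but these measures came from the same livers. The median width of distal islands was 22.4 kb in TCPOBOP replicate 1 against 24.0 kb in each of the other TCPOBOP livers. Because those were equal, any difference would have been flagged. In the rest of the chromosomes that liver also had the narrowest islands, at 20.8 kb against 23.2 to 23.6 kb. Cover of the end of chromosome 3 was 8.248% in TCPOBOP replicate 2 against 15.7 to 16.9% in the others, and vehicle replicate 2 had 11.98% against 16.7 and 17.3%. Cover of the end of chromosome 13 was 9.88% in TCPOBOP replicate 2 against 13.9 to 14.6%, and vehicle replicate 2 had 10.0% against 21.01 and 21.7%.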

How the results depend on the processing

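Of 254 values under other settings, for 19 results, 229 kept their direction and their side of the threshold or, where there was no test, stayed close to the value reported. For 52 of these 229 this says nothing about stability: they are treatment comparisons with too few livers to pass, where leaving out a liver allows no p under 0.0667 or 0.1, or trended limma fits, which recovered 0% of simulated losses. The 52 do not include the treatment comparisons that kept all 7 livers. There 1 measure alone could not pass over 5 comparisons either, so their side of the threshold says little about stability. Leaving out 1 liver also could not change the outcome for distal cover, island number, width and score per window against the rest or the first 10 Mb. All livers had the same direction there, so these values add nothing on stability either. Without both libraries numbered 2, chosen after the data were seen, 5 livers remain and p cannot fall under 0.0625. The distal differences from the rest were then 5.42 points of cover, 0.841 islands per Mb, 1.04 kb, 0.176 score per window and 0.0509 in Jaccard index, and those from the first 10 Mb were 12.1, 2.21, 2.32, 0.309 and 0.104. Against the neighbouring 5 Mb the differences reversed to -4.66 points of cover, -1.66 islands per Mb and -0.629 kb. Between treatments, cover reversed to -0.277 points with lists of equal total length, and the relative score per window to -0.0111 with a zone of 10 Mb. The cause was not tested. Limma without trend and robust variance called 1 distal region. Regions with islands in 1 group only numbered 1 for TCPOBOP and 1 for vehicle with lists of equal length (0.223% and 0.144% of all regions), 17 and 6 without the libraries numbered 2 (1.88% and 0.604%), where fewer livers have to be alike, and 0 for vehicle with islands at or above the median score.

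Leaving out 1 liver at a time gave distal minus rest differences of 5.80 to 6.31 points of cover, 0.903 to 1.02 islands per Mb, 0.867 to 1.13 kb, 0.219 to 0.272 score per window and 0.0552 to 0.0652 in Jaccard index, all with an adjusted exact p of 0.0312. This is the smallest p that 6 livers allow. Between treatments the ranges were -0.086 to 0.394 points of cover, 0.389 to 1.38 islands per Mb, -5.40 to -1.20 kb, -0.0177 to 0.0314 in relative score per window and 0.00329 to 0.0110 in Jaccard index.

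With the replicate number as a block the cover difference was 0.204 points, the width difference -4.13 kb, and limma called 0 distal regions. Same-numbered livers had correlations of 0.0269, 0.278 and 0.0693 of their deviations in cover, and differently numbered livers had -0.174 to 0.106. The numbers were not taken as pairs. Of the same-numbered livers, only those numbered 2 exceeded 0.1. The number of livers and the unknown read depth limit all comparisons between treatments.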

Other observations

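Genes could not be placed on the islands, but their order along the chromosomes shows what lies near the tips. In RefSeq's GRCm38 annotation, the last 60 protein-coding genes of each autosome were searched for symbols that start as those of the families Hox, Pax, Sox, Fox, Gata, Tbx, Nkx, Lhx, Dlx, Irx, Wnt, Fgf, Zic, Emx, Isl, Pdx, Cdx, Hes, Olig, Sall, Prdm and Cbx. They held 33 such symbols on 14 chromosomes, 9 of them in 1 Hoxc cluster. This was 2.89% of the genes searched, against 1.29% of all autosomal protein-coding genes, a difference that was not tested. The last 60 genes are not the last 5 Mb, and how many of the 33 lie in the distal zones was not counted. A symbol can match without being such a regulator, as with Fgfr1op2. The Hoxc genes, which pattern the body axis, lie 16 to 24 genes from the end of chromosome 15, one of the ends with the most cover. Pdx1 and Cdx2, regulators of pancreas and gut, are 32 and 31 genes from the end of chromosome 5. Zic2 and Zic5 are 8 and 9 genes from the end of chromosome 14 and Isl1 and Fgf10 are 26 and 21 genes from that of chromosome 13, both among the poor ends. Chromosomes 1, 8, 9, 10 and 12 have none among their last 60 genes. Whether islands lie on these genes was not tested.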
